A study of Homo sapiens with 96 samples.

Results

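The genes described here are 10 members of the JAK-STAT pathway: the kinases JAK1 and JAK2, the transcription factors STAT3, STAT5A, STAT5B and STAT6, and the feedback inhibitors SOCS1, SOCS2, SOCS3 and CISH. They were taken by symbol from the 19775 genes that had a probe set of their own on the array, and 34 probe sets belonged to them. Each gene is described by its main probe set, the one with the highest mean signal over all arrays, and its other probe sets are named where they were called and it was not. Of the 10 genes, 6 were bright enough to be tested in SUDHL4, 5 in OciLy18, 6 in Z138 and 5 in REC1.

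The 96 arrays, of the Affymetrix HG-U133 Plus 2.0 type, covered 4 established human B cell lymphoma lines in 32 groups of 3, with RNA taken after 4 h. SUDHL4 and OciLy18 are diffuse large B cell lymphoma lines, and Z138 and REC1 are mantle cell lymphoma lines. Each line received whole antibodies at 10 µg/ml: an isotype control, the anti-CD20 antibodies rituximab and LT20 (a murine antibody), anti-IgM or anti-IgG against the B cell receptor (BCR), and the F(ab')2 fragment of anti-IgM, which lacks the Fc part. The F(ab')2 form of rituximab was given to REC1 only. For the anti-IgM fragment the labels give the same dose and the study's methods a lower, equimolar one. SUDHL4, OciLy18 and Z138 each had a pair of untreated triplicates, Control 1 to 3 and Control 4 to 6, and REC1 had 1. Every treatment was set against Control 1 to 3 of its line, except that the reference of anti-IgG was Control 4 to 6 wherever a line had them, so that treatments of a line shared control arrays. The labels do not say that the 3 arrays of a group came from separate cultures, and p-values then cover only the spread between these arrays.

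Janus kinases sit on the inside of cytokine receptors. When a cytokine binds, they phosphorylate STAT proteins, which pair up, enter the nucleus and switch on target genes. Among those targets are the SOCS proteins and CISH, which bind the receptors or the kinases and damp the signal. In B cells STAT6 is best known as the transducer of IL-4, STAT3 of IL-10 and IL-21, and STAT5 of IL-2 family cytokines. The arrays measured messenger RNA only, not phosphorylation, which is the step that activates a STAT.

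The promoter windows of STAT3, STAT5A and SOCS1, the genes called by their main probe set with an antibody, and of CISH as a known STAT target, are shown first. RefSeq windows of the GRCh38.p14 build, running from 250 bases before to 50 bases after an annotated start, were matched for 9 of the 10 genes, in 17 windows, all but SOCS2. The windows were searched for TTCNNNGAA, the STAT consensus, TTCNNNNGAA, the wider spacing known for STAT6, and TGACGTCA, the cyclic AMP response element, each of which reads the same on both strands. Capitals mark a match, and the windows are given 5′ to 3′ on the strand of the gene, for STAT3 chr17:42388393-42388692 (minus strand), for STAT5A the most upstream of its windows, chr17:42287189-42287488 (plus strand), for SOCS1 chr16:11256155-11256454 (minus strand) and for CISH chr3:50611725-50612024 (minus strand).
STAT3: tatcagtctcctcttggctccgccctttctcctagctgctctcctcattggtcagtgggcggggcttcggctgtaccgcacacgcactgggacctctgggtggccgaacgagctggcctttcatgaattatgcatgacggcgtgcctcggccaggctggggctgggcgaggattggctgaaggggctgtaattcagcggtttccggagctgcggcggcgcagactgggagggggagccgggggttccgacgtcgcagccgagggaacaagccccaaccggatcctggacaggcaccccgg
STAT5A: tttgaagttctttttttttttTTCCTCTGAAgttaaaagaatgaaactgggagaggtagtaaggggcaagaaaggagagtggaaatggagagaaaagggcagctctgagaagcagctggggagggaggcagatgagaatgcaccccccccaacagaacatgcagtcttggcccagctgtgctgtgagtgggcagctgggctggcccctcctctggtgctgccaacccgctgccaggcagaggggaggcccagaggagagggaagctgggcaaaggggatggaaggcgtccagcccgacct
SOCS1: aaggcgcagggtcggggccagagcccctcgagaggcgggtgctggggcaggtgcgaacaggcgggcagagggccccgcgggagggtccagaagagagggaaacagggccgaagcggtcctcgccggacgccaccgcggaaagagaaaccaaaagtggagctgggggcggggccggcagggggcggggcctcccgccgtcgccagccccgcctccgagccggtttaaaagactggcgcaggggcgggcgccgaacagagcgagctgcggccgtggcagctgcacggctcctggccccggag
CISH: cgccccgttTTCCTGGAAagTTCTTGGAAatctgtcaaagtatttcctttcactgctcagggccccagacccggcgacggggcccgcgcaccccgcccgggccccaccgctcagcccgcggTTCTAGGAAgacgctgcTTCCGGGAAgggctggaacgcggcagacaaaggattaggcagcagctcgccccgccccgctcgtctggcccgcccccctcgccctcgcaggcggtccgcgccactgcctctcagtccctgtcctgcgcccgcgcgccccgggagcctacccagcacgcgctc
The CISH window held 4 copies of TTCNNNGAA, and it was the 1 window of the 17 with any. Among all 35116 windows of this length, 7.66% held that motif. The STAT5A window held 1 copy of TTCNNNNGAA, found in 6.44% of all windows, and no window of the 10 genes held TGACGTCA, found in 1.85%. The STAT3 and SOCS1 windows had no match to any of the motifs.

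A gene was called when its limma test gave a Benjamini-Hochberg adjusted p under 0.05 over all probe sets tested, the change exceeded 2-fold, and 1 of the groups compared had a mean signal above 100. Over the 25 treatment comparisons STAT3 was called higher in 7, STAT5A in 2 and STAT6 in 1, and SOCS1 was called lower in 2. Of all 9118 genes tested in at least 1 line, 28.9% were called at least once in these comparisons. No enrichment is read from the counts. JAK1, STAT5B and SOCS2 were called in none, and JAK2, SOCS3 and CISH stayed under the signal limit in every group. The median log2 change of the genes tested, by main probe set, was 0.56 with anti-IgG and 0.62 with rituximab in SUDHL4, 0.40 with anti-IgM in OciLy18, -0.06 with anti-IgG in Z138 and 0.60 with the rituximab fragment in REC1, beside medians of -0.06, -0.03, -0.02, -0.01 and -0.01 over all probe sets tested. With the anti-IgM fragment it was -0.23 in SUDHL4, 0.17 in OciLy18, -0.16 in Z138 and 0.17 in REC1, beside -0.003, -0.05, 0.02 and -0.01. Over the 25 comparisons it ran from -0.23 to 0.62. In SUDHL4 and REC1 the genes tested included STAT5A, which passed the signal limit there only through groups where it was raised. The median of 0.60 with the rituximab fragment in REC1 was the change of STAT5A itself. The medians in these lines are therefore values only, and no shift of the genes is read from them. In these bulk samples, fewer cells carrying a transcript and less of it per cell cannot be told apart.

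**Figure D1:**
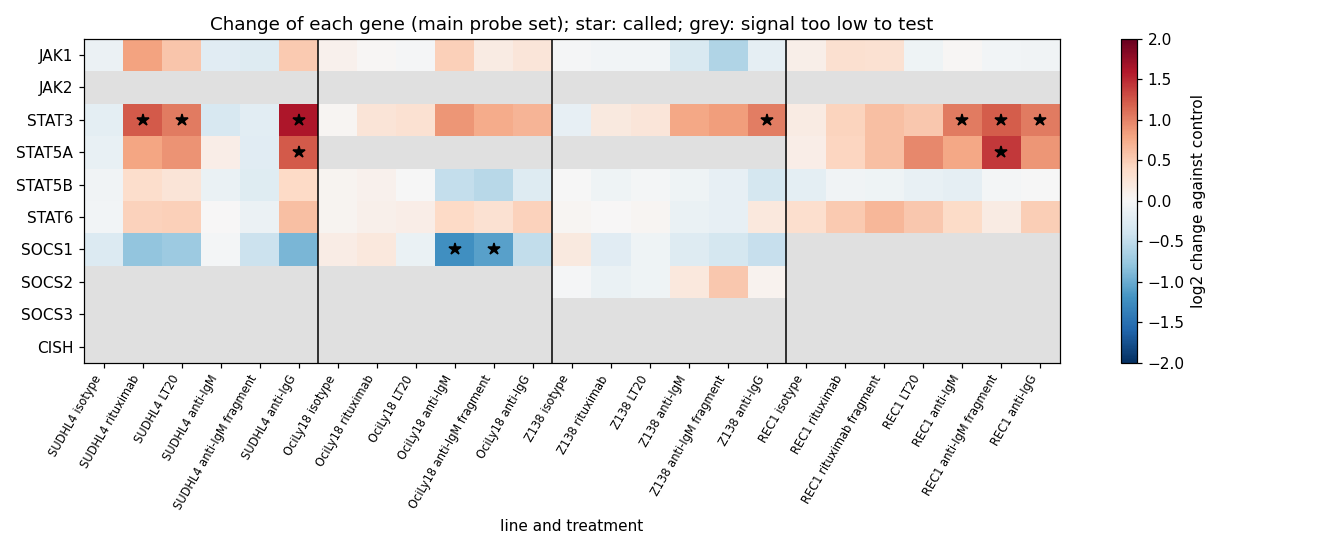
Log2 change of each gene against its controls (colour, main probe set) in the 25 comparisons, by line and treatment; stars mark calls and grey marks genes whose signal was too low to test. STAT3 is the row with most stars, and the 2 stars in the SOCS1 row are falls; the STAT6 call in REC1 came from another probe set and has no star.

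STAT3 was the gene called most often, and several of its calls lay close to the 2-fold limit. By adjusted p alone its main probe set passed upward in 16 of the 25 comparisons, and that of STAT6 in 13. STAT3 was called higher in SUDHL4 with anti-IgG, rituximab and LT20 and in Z138 with anti-IgG. In REC1 it was called with anti-IgM, the anti-IgM fragment and anti-IgG. In no line was it called with the isotype antibody.

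In SUDHL4 the STAT3 signals were 167, 168 and 143 on Control 4 to 6 and 470, 533 and 466 with anti-IgG. The anti-IgG arrays lay above all 6 untreated arrays of the line. The means were 159 ± 14.1 and 490 ± 37.8 (SD, n = 3 each), a 3.08-fold rise (log2 change 1.62 ± 0.11 SE, limma adjusted p = 5.6e-12). On Control 1 to 3 the signals were 141, 127 and 142, against 306, 323 and 328 with rituximab, a 2.33-fold rise (adjusted p = 1.6e-09). With LT20 they were 324, 260 and 265, a 2.06-fold rise (adjusted p = 2.0e-08). Every array of these antibodies lay above every control array. The LT20 call was close to the 2-fold limit: the log2 change of 1.05 became 0.94 without LT20 replicate 1, 0.99 without Control replicate 2 and 0.83 against Control 4 to 6, all under the limit. With anti-IgM the STAT3 signals were 109, 111 and 107, below the controls by 1.25-fold, which missed the test (adjusted p = 0.057), and with the anti-IgM fragment they were 115, 114 and 124 (adjusted p = 0.15). The shares of all 7201 genes called in SUDHL4 were 0% with isotype, 6.71% with rituximab, 7.6% with LT20, 0.0555% with anti-IgM, 0.472% with the anti-IgM fragment and 9.21% with anti-IgG. Of the 6 genes tested there, 1 was called with rituximab, 1 with LT20 and 2 with anti-IgG. With isotype, anti-IgM and its fragment limma called 0 and gave an unadjusted p under 0.05 for 0, 2 and 3 of them. Of all 13069 probe sets tested, 427, 3266 and 4955 had such a p.

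In REC1, whose untreated STAT3 level was the highest of the 4 lines, the control signals were 308, 306 and 403. With the anti-IgM fragment they were 763, 847 and 729, with no overlap (339 ± 55.2 against 780 ± 60.6, n = 3 each), a 2.32-fold rise (adjusted p = 3.4e-07). Whole anti-IgM gave 753, 758 and 585, a 2.07-fold rise (adjusted p = 3.3e-06). Anti-IgG gave 745, 543 and 803, a 2.05-fold rise (adjusted p = 4.4e-06). All 3 groups stood clear of the controls, but the anti-IgM and anti-IgG calls lay at the limit. Leaving out Control replicate 1 or 2 brought the log2 change for anti-IgM to 0.98 and that for anti-IgG to 0.97, and it fell under 1 as well without anti-IgM replicate 1 or 2 (0.99 and 0.98) and without anti-IgG replicate 1 or 3 (0.97 and 0.92). The anti-CD20 antibodies moved STAT3 less. The rituximab fragment gave 576, 531 and 438 (1.52-fold, adjusted p = 0.0034), LT20 gave 444, 517 and 513 (1.46-fold, adjusted p = 0.006), and rituximab gave 358, 518 and 514 (1.36-fold, adjusted p = 0.036). The first 2 of these groups cleared the controls and the rituximab group overlapped them, and none reached 2-fold. With isotype the signals were 373, 377 and 375, inside the control range (adjusted p = 0.56). The shares of all 7841 genes called in REC1 were 0.778% with isotype, 2.09% with rituximab, 3.86% with the rituximab fragment, 6.34% with LT20, 14.8% with anti-IgM, 17.4% with the anti-IgM fragment and 12.8% with anti-IgG. Of the 5 genes tested, 1 was called with anti-IgM, 1 with anti-IgG, 1 with the rituximab fragment and 2 with the anti-IgM fragment. With isotype, LT20 and rituximab limma called 0 and gave an unadjusted p under 0.05 for 1, 3 and 3 of them. Of all 14068 probe sets tested, 3630, 6837 and 5074 had such a p.

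**Figure D2:**
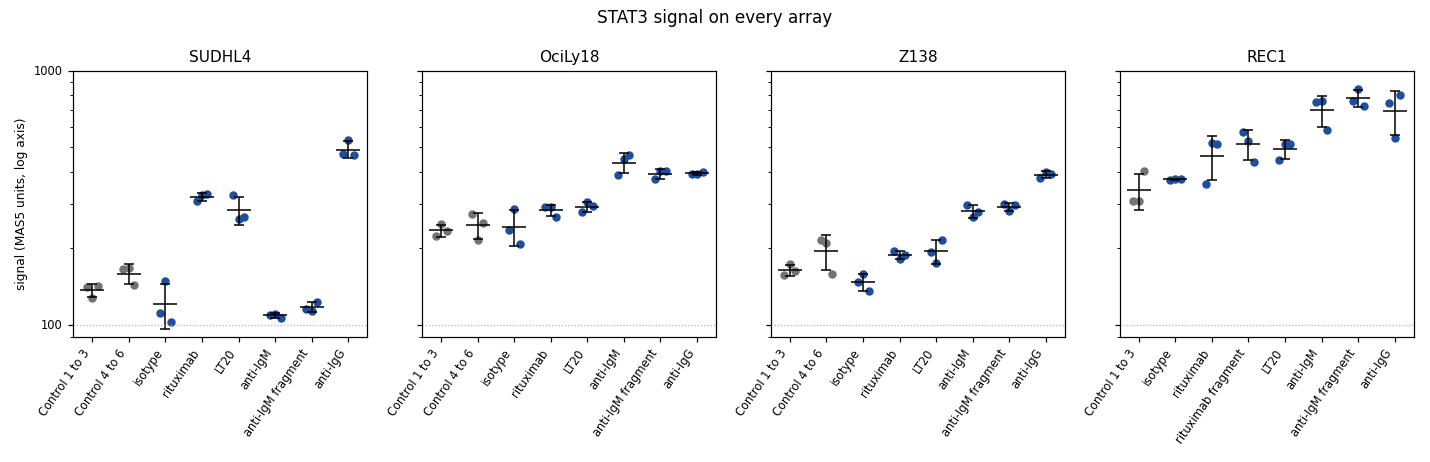
STAT3 signal (probe set 208991_at, log axis) on each array, by line and treatment; grey points are untreated, blue points treated, the bar is the mean and the whisker the SD of 3 arrays, and the dotted line is the signal limit of 100. In SUDHL4 the anti-IgG arrays sit between 466 and 533 and the anti-IgM arrays between 107 and 111; in REC1 the anti-IgM fragment arrays sit between 729 and 847.

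In Z138, STAT3 signals were 215, 210 and 159 on Control 4 to 6 and 377, 400 and 394 with anti-IgG (195 ± 30.8 against 390 ± 11.7), a 2.02-fold rise (adjusted p = 6.5e-09). The groups did not overlap. The call rested on the limit: the log2 change of 1.02 became 0.88 without Control replicate 6 and 0.999 without anti-IgG replicate 2. Against Control 1 to 3 (157, 173 and 163), anti-IgM gave 298, 266 and 277 (1.70-fold, adjusted p = 8.6e-07) and the anti-IgM fragment 299, 280 and 296 (1.78-fold, adjusted p = 1.7e-07). These arrays too lay above all controls, at under 2-fold. Rituximab gave 196, 182 and 189 (1.15-fold, adjusted p = 0.32) and LT20 gave 194, 175 and 216 (1.18-fold, adjusted p = 0.24). Both groups lay above Control 1 to 3 and overlapped Control 4 to 6. The shares of all 7622 genes called in Z138 were 0% with isotype, 0.105% with rituximab, 0.171% with LT20, 3.45% with anti-IgM, 5.42% with the anti-IgM fragment and 6.4% with anti-IgG. Of the 6 genes tested, 1 was called with anti-IgG and none with the other antibodies by limma, which gave an unadjusted p under 0.05 for 0 of them with isotype, 1 with rituximab, 1 with LT20, 3 with anti-IgM and 5 with the anti-IgM fragment. Of all 13799 probe sets tested, 1004, 2079, 1868, 6700 and 7633 had such a p with these antibodies in turn.

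In OciLy18, STAT3 stayed under the 2-fold limit with every antibody. The signals were 224, 249 and 234 on Control 1 to 3, 390, 450 and 466 with anti-IgM (1.85-fold, adjusted p = 7.2e-08) and 374, 404 and 402 with its fragment (1.67-fold, adjusted p = 9.4e-07). With anti-IgG they were 391, 392 and 400, against 272, 215 and 253 on Control 4 to 6 (1.61-fold, adjusted p = 8.7e-06). All arrays of these 3 groups lay above all untreated arrays of the line. Rituximab gave 290.2, 291 and 266 (1.20-fold, adjusted p = 0.14) and LT20 gave 278, 303 and 295 (1.24-fold, adjusted p = 0.033). Both lay above Control 1 to 3, and the lowest rituximab array lay under the highest of Control 4 to 6. The shares of all 7802 genes called in OciLy18 were 0% with isotype and with rituximab, 0.103% with LT20, 4.38% with anti-IgM, 5.13% with the anti-IgM fragment and 1.67% with anti-IgG. Of the 5 genes tested, SOCS1 alone was called, with anti-IgM and with the anti-IgM fragment. With isotype, rituximab, LT20 and anti-IgG limma called 0 and gave an unadjusted p under 0.05 for 0, 2, 2 and 5 of them. Of all 13969 probe sets tested, 819, 2583, 4469 and 5195 had such a p.

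Of the other STAT3 probe sets, 208992_s_at could be tested in 3 lines and 225289_at in 4, and 208992_s_at and 225289_at were both called higher in SUDHL4 with anti-IgG (log2 1.47 and 1.36) and in REC1 with anti-IgM (1.36 and 1.19) and its fragment (1.68 and 1.05). The first was also called in Z138 (1.03) and REC1 (1.31) with anti-IgG, where 225289_at reached 0.91 and 0.93. The rituximab and LT20 rises in SUDHL4 were called by 208991_at only: 208992_s_at reached 1.42 and 1.72 in groups whose mean signal stayed under 100, and 225289_at reached 0.69 and 0.70. STAT3 also differed between the untreated triplicates of a line by these probe sets. In Z138, 225289_at gave 56.3, 56.5 and 49.3 on Control 1 to 3 and 126, 98.2 and 100.4 on Control 4 to 6, a log2 difference of 0.99 (adjusted p = 4.3e-06), and in SUDHL4 the difference was 0.54 (adjusted p = 0.00075). By 208992_s_at the differences were 0.74 in Z138 (limma adjusted p = 0.081) and 0.75 in SUDHL4 (adjusted p = 0.010). By the main probe set these differences were 0.23 (adjusted p = 0.054) and 0.22 (adjusted p = 0.11).

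**Figure D3:**
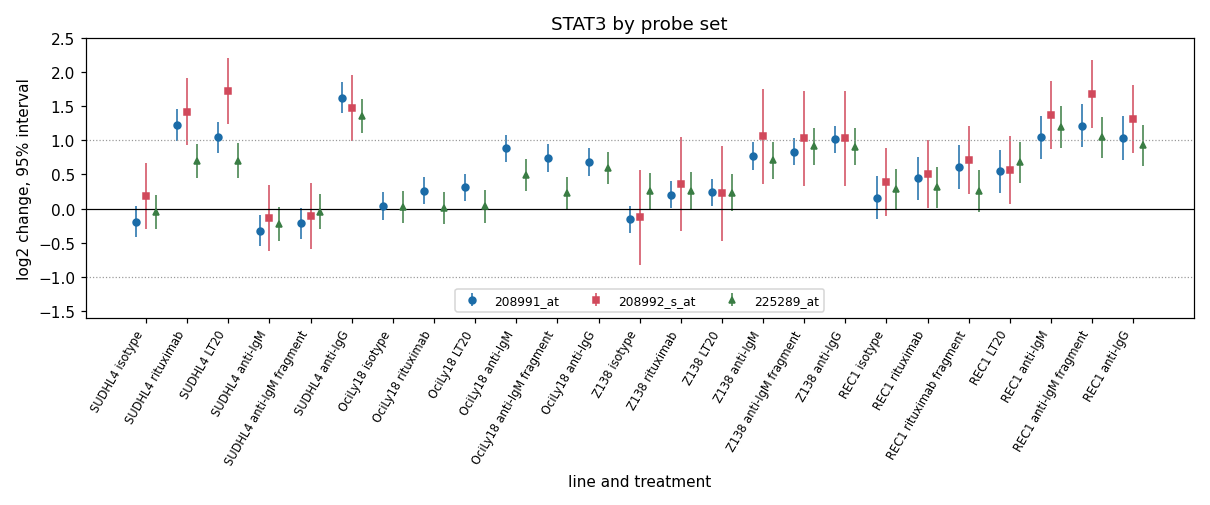
Log2 change of STAT3 against controls with its 95% confidence interval, for each of its 3 tested probe sets, by line and treatment; dotted lines mark 2-fold. The probe sets share their direction wherever a call was made, and in SUDHL4 with anti-IgG they stand at 1.62, 1.47 and 1.36.

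The 3 genes whose pattern over the 32 group means was most like that of STAT3, after the mean of each line was subtracted, were NEU1 (a lysosomal sialidase, r = 0.97), MFN1 (a mitochondrial fusion protein, r = 0.96) and NR4A1 (an orphan nuclear receptor and immediate early gene, r = 0.95), out of 9090 genes. These correlations are descriptions over groups that share control arrays.

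STAT5A and STAT5B are neighbouring genes next to STAT3 on one chromosome. They encode closely related proteins that act downstream of the IL-2 receptor. STAT5A was bright enough to test in SUDHL4 and REC1. In both lines its controls lay under the signal limit, and it passed that limit only through antibody groups where it was raised. Its calls therefore depend on those groups, and its folds are values only. In SUDHL4 its signals were 64.1, 59.5 and 52.3 on Control 4 to 6 and 128, 172 and 116 with anti-IgG (58.6 ± 5.95 against 139 ± 29.4, n = 3 each), a 2.35-fold rise (log2 1.23 ± 0.15 SE, adjusted p = 9.8e-08). All anti-IgG arrays lay above all untreated arrays. Control 1 to 3 were higher than Control 4 to 6, at 69.6, 75.6 and 88.2 (adjusted p = 0.023 for the difference), and against them the log2 change with anti-IgG was 0.82, no longer past the 2-fold limit. Rituximab gave 162, 127 and 115 (1.72-fold, adjusted p = 7.6e-05) and LT20 gave 138.5, 136 and 161 (1.87-fold, adjusted p = 1.1e-05), both clear of the controls and under 2-fold. Against Control 4 to 6 their log2 changes were 1.19 and 1.31, both past the limit, so that all 3 antibodies were past it against Control 4 to 6 and none against Control 1 to 3. With anti-IgM and its fragment the means of 85.4 ± 8.14 and 66.0 ± 4.15 missed the test (adjusted p = 0.62 and 0.26).

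In REC1 the STAT5A signals were 65.7, 72.0 and 72.1 on the controls and 211, 200.2 and 151 with the anti-IgM fragment (69.9 ± 3.67 against 187 ± 32.1), a 2.65-fold rise (adjusted p = 8.9e-09). This was the largest STAT5A change in the 13 comparisons where it was tested. The controls lay under the signal limit here too, so the STAT5A folds in REC1 are values only. LT20 gave 1.94-fold (adjusted p = 7.6e-06), anti-IgG 1.85-fold (1.1e-05), anti-IgM 1.71-fold (5.5e-05), the rituximab fragment 1.52-fold (0.0018) and rituximab 1.35-fold (0.025), none past the limit. With isotype the signals were 72.0, 67.0 and 93.7 (adjusted p = 0.59). Set directly against whole anti-IgM, the fragment gave a STAT5A level higher by 0.63 on the log2 scale (adjusted p = 0.0079). In OciLy18 and Z138 the group means of STAT5A lay between 44.1 and 79.0 and between 25.8 and 38.4, too low to test.

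STAT5B was tested in all 25 comparisons and called in none. Its mean ranged from 132 to 524 over the 32 groups. Of the changes that passed the adjusted p, 3 were upward, all in SUDHL4, and 5 were downward. Small p-values were common over all probe sets, as given below for STAT6. In OciLy18 it was lower by 1.40-fold with anti-IgM (185, 198 and 203, adjusted p = 1.7e-05) and by 1.47-fold with the fragment (195, 176 and 187, adjusted p = 2.2e-06), below the controls on every array. In SUDHL4 it was higher by 1.32-fold with anti-IgG (adjusted p = 9.0e-06) and by 1.27-fold with rituximab (adjusted p = 7.4e-05), and lower by 1.18-fold with the anti-IgM fragment (adjusted p = 0.008).

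**Figure D4:**
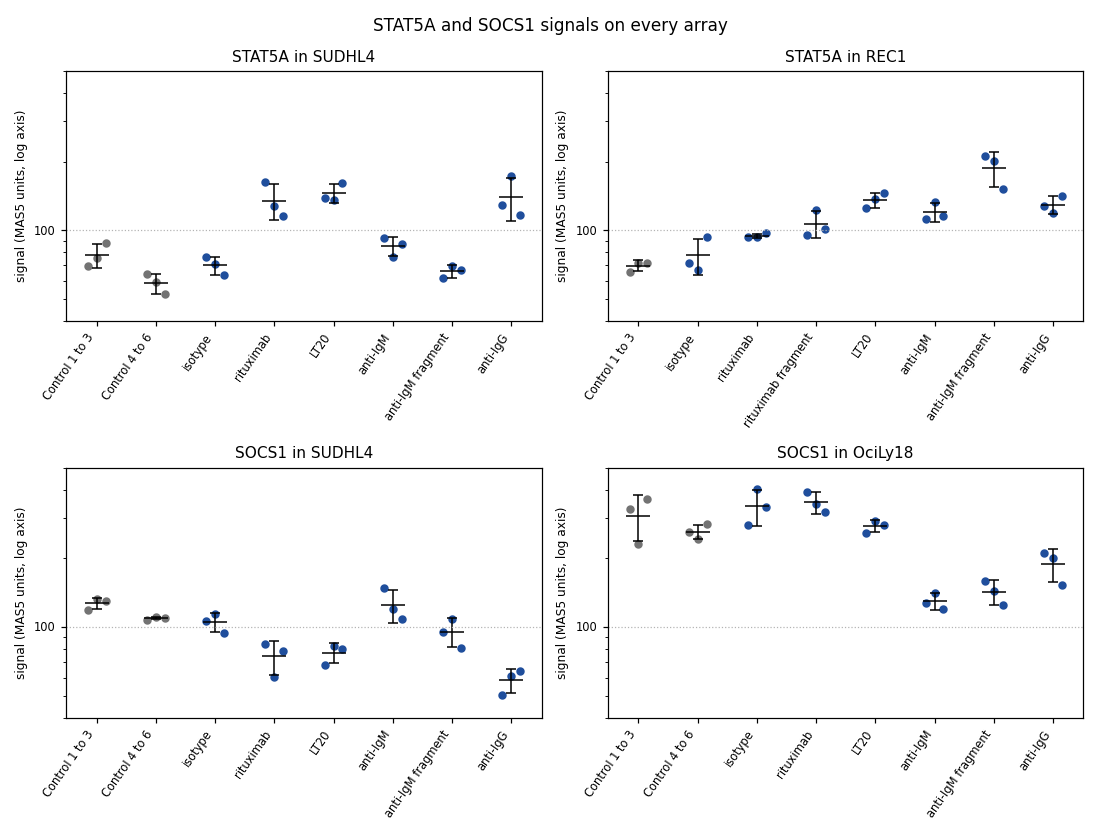
STAT5A (top, SUDHL4 and REC1) and SOCS1 (bottom, SUDHL4 and OciLy18) signals on each array, on a log axis, with the mean and SD of 3 arrays; grey points are untreated and the dotted line is the signal limit of 100. STAT5A sits between 151 and 211 with the anti-IgM fragment in REC1, and SOCS1 sits between 120 and 141 with anti-IgM in OciLy18, under all 6 untreated arrays.

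STAT6, the brightest STAT, had group means from 615 to 1791. By its main probe set it passed the adjusted p in the upward direction in 13 of 25 comparisons and downward in 1, all under 2-fold. Small p-values were common over all probe sets. By limma 427 of 13069 had an unadjusted p under 0.05 with isotype in SUDHL4, and 9350 of 14068 with the anti-IgM fragment in REC1. The highest was the rituximab fragment in REC1, with signals of 1699, 1684 and 1752 against 1079 ± 81.4 in the controls (1.59-fold, adjusted p = 1.1e-05). In that comparison the dimmer probe set 201332_s_at was called, with 83.4, 108 and 122 on the controls and 237, 189 and 211 with the fragment (log2 1.03, adjusted p = 5.0e-05). The isotype antibody in REC1 also came with a higher STAT6 signal (1.26-fold, adjusted p = 0.025). Set directly against isotype there, STAT6 differed by 0.04 with anti-IgM, 0.15 with anti-IgG and 0.21 with LT20 on the log2 scale. None of these passed the test (limma adjusted p = 0.74, 0.23 and 0.14). In SUDHL4 anti-IgG gave 1.51-fold (adjusted p = 6.9e-07), and in OciLy18 anti-IgG gave 1.37-fold (adjusted p = 8.7e-06) against Control 4 to 6, which were themselves lower than Control 1 to 3 by 0.42 on the log2 scale (adjusted p = 4.7e-05).

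JAK1, the kinase shared by most cytokine receptors of lymphocytes, had group means from 186 to 1080 and was called in none of 25 comparisons. It was higher in SUDHL4 with rituximab (373, 404 and 395, 1.75-fold, adjusted p = 3.7e-07), LT20 (1.48-fold, adjusted p = 5.2e-05) and anti-IgG (1.44-fold, adjusted p = 9.9e-05), and in OciLy18 with anti-IgM (1.40-fold, adjusted p = 2.4e-05). In Z138 the direction was the opposite: the anti-IgM fragment gave 498, 504 and 523, a log2 change of -0.60 (adjusted p = 7.5e-07), and anti-IgM a change of -0.30 (adjusted p = 0.0033). The untreated triplicates of Z138 differed in JAK1 too, Control 4 to 6 lying under Control 1 to 3 (log2 -0.38, adjusted p = 0.0005). This gap was larger than the change with whole anti-IgM, so the direction of that change depended on the control triplicate. In REC1 no JAK1 comparison passed the adjusted p by the main probe set, and the changes lay between -0.08 and 0.31. The dimmer JAK1 probe set 1552611_a_at was lower there with anti-IgM (log2 -0.52, adjusted p = 0.0004), anti-IgG (-0.56, adjusted p = 0.00018), the rituximab fragment (-0.30, adjusted p = 0.04) and the anti-IgM fragment (-0.66, adjusted p = 2.4e-05), all under 2-fold, so that the JAK1 probe sets differed in REC1. The test of the difference in anti-IgM response between OciLy18 and Z138 gave 0.78 for JAK1 (adjusted p = 0.00021), under the 2-fold limit. JAK2, which serves erythropoietin and interferon-γ receptors among others, had group means of 15.1 to 59.1.

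SOCS1, which binds the kinases and blocks them, moved down. In OciLy18 its signals were 328, 231 and 365 on Control 1 to 3, 128, 141 and 120 with anti-IgM and 160, 144 and 125 with the anti-IgM fragment. Neither treated group reached the lowest untreated array of the line. The means fell from 308 ± 69.6 to 130 ± 10.5, 2.34-fold lower (log2 -1.22 ± 0.15 SE, adjusted p = 4.0e-07), and to 143 ± 17.5, 2.13-fold lower (adjusted p = 1.9e-06). For the fragment the call ended without Control replicate 3 (-0.95), without fragment replicate 3 (-0.996) and against Control 4 to 6 (-0.88). Anti-IgG gave 210, 201 and 153 in the same line, 1.40-fold under Control 4 to 6 (adjusted p = 0.017). Rituximab gave 392, 344 and 318 and LT20 gave 259, 292 and 281, both overlapping the controls (adjusted p = 0.48 and 0.59).

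In SUDHL4 the SOCS1 signals were 108, 111 and 109 on Control 4 to 6 and 50.2, 60.8 and 64.1 with anti-IgG, with no overlap, 1.88-fold lower (log2 -0.91, adjusted p = 6.0e-06). Against Control 1 to 3 (119, 132 and 130) rituximab gave 84.4, 60.2 and 78.6 (1.72-fold lower, adjusted p = 5.5e-05) and LT20 gave 68.3, 82.9 and 79.7 (1.65-fold lower, adjusted p = 0.00013). These groups too lay under every untreated array, and none passed the 2-fold limit. Set against Control 1 to 3, the anti-IgG change was -1.13, past it. With anti-IgM the SUDHL4 signals were 147, 119 and 108 (adjusted p = 0.92). The anti-IgM fragment gave 95.4, 109 and 81.1 (1.34-fold lower, adjusted p = 0.027) and isotype gave 107, 115 and 94.4 (1.21-fold lower, adjusted p = 1.0). Both groups lay under all of Control 1 to 3 and overlapped Control 4 to 6. In Z138 the changes were smaller: anti-IgG gave 142, 141 and 143, against 171, 183 and 238 on Control 4 to 6 (1.38-fold lower, adjusted p = 0.012). Of the 18 comparisons in which SOCS1 was tested, 8 passed the adjusted p downward and 0 upward. Small p-values were common over all probe sets, as given above for STAT6. The other 3 SOCS1 probe sets had no group above the signal limit and no array above 46.8, so the SOCS1 result rested on 210001_s_at.

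SOCS2, an inhibitor best known for restraining growth hormone signalling, was bright in Z138 alone. Its signals there were 309, 293 and 340 on Control 1 to 3 and 448, 466 and 453 with the anti-IgM fragment (1.45-fold, adjusted p = 1.1e-05), with no overlap. Whole anti-IgM gave 341, 364 and 390 (1.16-fold, adjusted p = 0.042), and the fragment stood above it by 0.32 on the log2 scale (adjusted p = 0.018). The other Z138 treatments lay between 286 and 310 (adjusted p from 0.46 to 0.97). In REC1 the SOCS2 mean was 42.4 with the anti-IgM fragment and 21.5 ± 7.78 on the controls, both under the signal limit, and a fit without the signal filter gave 2.06-fold for it (adjusted p = 0.018), while in SUDHL4 and OciLy18 no group mean passed 11.7.

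SOCS3 and CISH, both textbook targets of activated STATs, stayed low. The SOCS3 group means were 14.4 to 29.4 and the CISH means 18.5 to 90.5, and the highest CISH array was at 100.6. CISH was brighter in Z138 and REC1 (61.3 to 90.5) than in SUDHL4 and OciLy18 (18.5 to 42.3). When the fit was repeated without the signal filter, none of 25 comparisons gave an adjusted p under 0.05 for SOCS3, CISH or JAK2.

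The lines differed in their untreated levels of these genes. Between untreated lines, 15 differences were called, with 6 genes tested in each pair. The counts are those higher and lower in the first line, beside the share of all 8527 genes called. SUDHL4 had 0 and 2 against OciLy18 (23.7%), 1 and 2 against Z138 (25.5%) and 2 and 2 against REC1 (31.9%). OciLy18 had 0 and 1 against Z138 (18.7%) and 1 and 1 against REC1 (29.3%). Z138 had 2 and 1 against REC1 (29.6%). These counts include SOCS2 in each pair with Z138 and SOCS1 in each pair with REC1. There 1 of the lines lay under the signal limit, so these calls follow from the line where the gene was high. SOCS2 was 296 ± 28.9 in Z138 (n = 6), 21.5 ± 7.78 in REC1 (n = 3), 10.4 ± 2.04 in OciLy18 and 6.56 ± 3.63 in SUDHL4 (n = 6 each). The Z138 arrays lay above all others, and since SOCS2 passed the signal limit through Z138 alone, no fold is given. SOCS1 ran the other way in REC1, at 18.1 ± 5.18 against 285 ± 52.2 in OciLy18, 171 to 238 on the arrays of Z138 and 118 ± 10.7 in SUDHL4. No REC1 array reached those of another line, and no fold is given against a level under the signal limit. Z138 was thus the line with both SOCS1 and SOCS2 above the limit, and REC1 the line with neither.

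JAK1 was lowest in SUDHL4, at 226 ± 12.4, followed by 553 ± 50.9 in OciLy18, 687 ± 116 in Z138 and 860 ± 88.8 in REC1. SUDHL4 was 2.44-fold under OciLy18 (adjusted p = 3.5e-11), and the arrays of Z138 and REC1 overlapped (1.26-fold, adjusted p = 0.013). By 1552611_a_at OciLy18 was also called under REC1 (log2 -1.06, adjusted p = 0.00015), where the main probe set gave -0.64. STAT5B had the opposite order at its top: 400 ± 25.9 in SUDHL4, 272 ± 22.4 in OciLy18, 170 ± 11.1 in REC1 and 158 (143 to 187) in Z138, where the last 2 did not differ beyond their spread (adjusted p = 0.31). STAT3 was 339 ± 55.2 in REC1, 241 ± 20.9 in OciLy18, 179 ± 26.2 in Z138 and 148 ± 16.1 in SUDHL4, and REC1 was 2.28-fold above SUDHL4 (adjusted p = 1.6e-08). By 208992_s_at Z138 was also called under REC1 (log2 -1.32, adjusted p = 0.0015), where the main probe set gave -0.92. STAT6 was 1193 ± 209 in OciLy18 and 1079 ± 81.4 in REC1, which did not differ beyond their spread (adjusted p = 0.31), above 742 ± 72.6 in SUDHL4 and 702 ± 33.6 in Z138 (adjusted p = 0.47 between these).

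**Figure D5:**
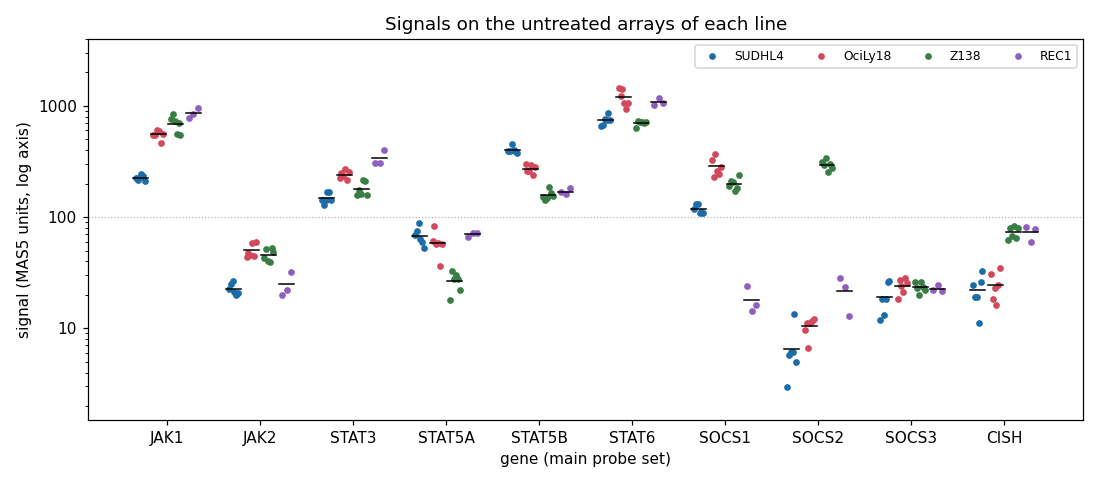
Signals of each gene (main probe set) on the untreated arrays, coloured by line, on a log axis; bars are means over 6 arrays, or 3 in REC1, and the dotted line is the signal limit of 100. SOCS2 stands near 296 in Z138 and under 30 elsewhere, and SOCS1 stands near 18.1 in REC1 and above 100 elsewhere.

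Whether an antibody acted differently in different lines was tested on the difference of the responses. Of the 11 such comparisons, 5 held a call in these genes, 7 calls in all. In each of the 7 calls one of the lines was under the signal limit and the probe set entered the test through the other line, so the differences are given as values and no difference in response is read from them. With anti-IgG the log2 change in SUDHL4 minus that in OciLy18 was 1.40 for STAT5A and 1.30 for STAT3 by 208992_s_at (background 7%), and OciLy18 minus REC1 was -1.06 and -1.14 (background 11.7%). The OciLy18 group means were 44.1 to 79.0 for STAT5A and 45.6 to 90.7 for 208992_s_at. By its main probe set, bright in both lines, the STAT3 difference between SUDHL4 and OciLy18 was 0.94 (adjusted p = 1.1e-05), under the 2-fold limit. With LT20 the STAT3 change by 208992_s_at in SUDHL4 minus that in REC1 was 1.15 (background 9.7%), with SUDHL4 under the limit in both groups, and by the main probe set it was 0.50 (adjusted p = 0.016). For SOCS1, OciLy18 minus REC1 was -1.44 with anti-IgM (background 12%) and SUDHL4 minus REC1 was -1.03 with rituximab (background 6.08%), with SOCS1 signals in REC1 at 10.4 to 26.9 on every array. No gene of the 10 was called for anti-IgG in SUDHL4 against Z138 (background 7.81%) or REC1 (12.2%), in OciLy18 against Z138 (4.73%) or in Z138 against REC1 (11%), nor for anti-IgM in OciLy18 against Z138 (3.11%) or in Z138 against REC1 (14.3%), where limma gave an unadjusted p under 0.05 for 5, 4, 5, 2, 4 and 2 of them. Of all 17148 probe sets tested, 6474, 8276, 5017, 7631, 5235 and 8707 had such a p.

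Antibodies were also set directly against each other within a line, with 0 calls of these genes in 9 comparisons by limma. The anti-IgM fragment did not separate from whole anti-IgM for STAT3, with log2 differences of 0.17 in REC1 (95% interval -0.15 to 0.48), -0.14 in OciLy18 (-0.34 to 0.05) and 0.06 in Z138 (-0.14 to 0.26). The background shares there were 0.217%, 0.0513% and 0.0525%. LT20 against rituximab gave STAT3 differences of -0.18 in SUDHL4 (-0.41 to 0.05, background 0%) and 0.10 in REC1 (-0.22 to 0.42, background 0.37%), and the rituximab fragment against rituximab gave 0.16 (-0.15 to 0.48, background 0%). Against the isotype antibody in REC1, which shifted other genes, STAT3 was higher by 0.89 with anti-IgM (adjusted p = 4.9e-05, background 6.86%), 0.87 with anti-IgG (adjusted p = 7.3e-05, background 5.75%) and 0.39 with LT20 (adjusted p = 0.075, background 1.2%). An unadjusted p under 0.05 was found by limma for 1 to 4 of the genes in each of the 9 comparisons. Over all probe sets its lowest share was 813 of 14068, for the rituximab fragment against rituximab. The highest was 7178 of 14068, for anti-IgM against isotype. Between the untreated triplicates of a line none of the 10 was called by limma either (background 3.28% in SUDHL4, 1.18% in OciLy18 and 1.78% in Z138), with an unadjusted p under 0.05 for 3, 2 and 3 of them. Such a p was given for 7205 of all 13069 probe sets in SUDHL4, 6509 of 13969 in OciLy18 and 6936 of 13799 in Z138. A small p without a 2-fold change was thus common even between untreated arrays.

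Beyond the 10 genes, none of the other JAK, STAT and SOCS family members on a further list was called in any of the 25 treatment comparisons, with 6 of its 9 genes tested in at least 1 line. Over the same 25 comparisons, 2633 of all 9118 genes tested in at least 1 line (28.9%) were called at least once, the background for the counts that follow. Among other regulators of the pathway, 4 of 11 tested were called somewhere, a share near that background. PTPN6 (SHP-1, a phosphatase that dampens BCR and JAK signals) rose from 54.1 ± 6.96 to 630 ± 36.6 with anti-IgM in OciLy18 (11.7-fold, adjusted p = 1.1e-18) and, in Z138, from 129 to 146 on Control 1 to 3 to 776 ± 15.3 (5.61-fold, adjusted p = 3.5e-10), and was already at 1420 ± 69.5 in untreated REC1, where it was not called. PTPN6 was called in both OciLy18 and Z138 with the anti-IgM fragment and anti-IgG too. With anti-CD20 antibodies it was called with LT20 in OciLy18 (3.00-fold) and with rituximab and LT20 in Z138 (2.62- and 2.95-fold). In SUDHL4 it was called with rituximab and anti-IgG. The OciLy18 controls of PTPN6 lay under the signal limit, so the folds there are values only. In untreated Z138 the PTPN6 signals were 129, 146, 141, 484, 202 and 202 on Control 1 to 6, so that replicate 4 stood apart. PIAS3, an inhibitor of STAT3, was 2.19-fold lower in REC1 with anti-IgM (49.8 ± 7.03, adjusted p = 4.1e-06), and PTPN11 (SHP-2) was 2.35-fold higher with the fragment by 209896_s_at (adjusted p = 3.4e-05). PTPRC (CD45) was 2.17-fold lower in REC1 with anti-IgG (adjusted p = 3.5e-06).

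Of 14 receptor genes tested, 10 were called in at least 1 comparison, beside 28.9% of all genes, with 3 up and 3 down of 11 with the anti-IgM fragment in REC1 and 4 up and 1 down of 8 with it in OciLy18. The list was chosen with earlier results of these data known, so no enrichment is read from the count. IL21R rose furthest, in REC1 from 17.1 ± 4.74 on the controls to 461 ± 50.2 with the anti-IgM fragment by 219971_at (27.5-fold, adjusted p = 1.4e-17), and 3 probe sets of it were called with every antibody in that line. With isotype in REC1 it stood at 106 ± 8.63 (6.34-fold, adjusted p = 1.0e-11). IL4R, the receptor upstream of STAT6, rose in REC1 with the fragment from 52.9 ± 2.06 to 389 ± 29.1 (7.34-fold, adjusted p = 1.7e-14) and in OciLy18 with anti-IgM 2.05-fold (adjusted p = 2.0e-09). By these probe sets the IL21R and IL4R controls in REC1 lay under the signal limit, so their folds there are values only. IL10RA fell in REC1 with the anti-IgM fragment from 664 ± 78.1 to 59.3 ± 3.14, 11.2-fold lower (adjusted p = 9.6e-17). IL6ST, the gp130 subunit through which IL-6 and LIF act, fell in Z138 with anti-IgG from 269 ± 28.2 to 69.7 ± 3.04, 3.84-fold lower (adjusted p = 1.2e-15).

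Ligand genes passed the signal limit in REC1 alone, 3 of 12 with a probe set. All 3 were under the limit on the controls and passed it through groups where they were raised. That all 3 were called there therefore follows from the filter and is not read as a result. IL2 was at 182 ± 13.2 with anti-IgM and 366 ± 31.7 with the fragment, both called, and at 0 to 1.08 on the control arrays, so no fold is given. LIF went up from 4.90 ± 4.22 to 129 ± 23.7 with the fragment (adjusted p = 6.1e-08). IL7 was called with LT20, rituximab, its fragment and isotype (98.9 ± 6.65 to 294 ± 29.2 with LT20, 2.97-fold, adjusted p = 2.6e-12) and stood at 97.3 ± 3.42 with anti-IgM. Of 10 STAT target genes tested, 9 were called at least once, beside 28.9% of all genes, most in Z138 with anti-IgG (2 up and 5 down of 9). This list too was chosen with earlier results of these data known, so no enrichment is read from the count. MYC went up in REC1 with every antibody, isotype included (from 1439 ± 121 to 4220 ± 135 with anti-IgM, 2.94-fold, adjusted p = 1.2e-15), and down in Z138 with anti-IgG (2.72-fold lower, adjusted p = 1.8e-13). ICAM1 fell in Z138 with the anti-IgM fragment from 129 ± 12.8 to 22.8 by 202638_s_at (5.64-fold lower, adjusted p = 4.4e-13). MCL1, which keeps B cells alive, rose 2.21-fold in OciLy18 with the fragment (adjusted p = 6.0e-13), and BATF rose 3.05-fold in REC1 with LT20 (adjusted p = 7.3e-12).

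The arrays had nearly equal totals, 8528613 to 8530013 signal units, because the authors had scaled them. The defining B cell markers MS4A1, CD79A, CD79B and PAX5 were above 100 in every group of every line, and CD22 in all lines but Z138 (15.5 to 33.9). The 3 monocyte and 3 NK cell markers stayed under 100 in all groups. Of 4 T cell markers, 2 passed 100 in REC1, where their summed signal ran from 733 to 1560, led by CD3D at 651 to 1353, and 1 passed it in Z138. The part of these transcripts in the REC1 results was not tested.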

How the data were processed

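The deposited values were linear intensities, 1 for each probe set and array, which the authors computed with GCOS according to the methods and with MAS5 according to the submitters' processing notes, with each array scaled to a nearly equal total. Detection calls and the scaling target were not given in the sources used here. The authors' group means and change factors were not used. Of 54675 probe sets, 41097 carried 1 gene symbol in the platform annotation, 1801 several and 11777 none, and genes were named from the first kind only. Signals under 1 (3.49 to 21.6% of an array) were set to 1, log2 was taken, and probe sets with a group mean above 100 in the line were tested with limma 3.58.1 (trend, R 4.3.3, data.table version 1.17.8), all groups of a line in 1 fit. Comparisons of untreated lines used the untreated arrays of all lines, and comparisons of responses used all 96 arrays. P-values were Benjamini-Hochberg adjusted over all probe sets tested. A call needed an adjusted p under 0.05, a change above 2-fold and a mean above 100, after the fold and level limits of the study's methods. A gene counted as called if any probe set was. The number of arrays limits the precision. The procedure was tested on simulated data. Alternatives were quantile normalization, 16 added before log2, no filter, no variance trend, other reference arrays, a replicate block, the mean over probe sets and leaving out each array. The genes and lists were chosen with earlier results of these data known. The genes named from each list were the 4 with the smallest adjusted p at most. The likeness of STAT3 was Pearson's r.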

Additional observations from a re-analysis of the deposited data

Results flagged for a closer look

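The log2 changes of 3 of the genes differed between lines by a test of the difference itself, in each case with one of the lines under the signal limit of 100, so that the gene entered the test through the other line and no difference in response is read from the values. SUDHL4 minus OciLy18 with anti-IgG was 1.40 for STAT5A and 1.30 for STAT3 by probe set 208992_s_at. OciLy18 minus REC1 with anti-IgG was -1.06 for STAT5A and -1.14 for STAT3 by 208992_s_at. In OciLy18 the group means of STAT5A were 44.1 to 79.0 and those of 208992_s_at 45.6 to 90.7. SUDHL4 minus REC1 with LT20 was 1.15 for STAT3 by 208992_s_at, whose SUDHL4 means were under the limit. For SOCS1, OciLy18 minus REC1 was -1.44 with anti-IgM and SUDHL4 minus REC1 was -1.03 with rituximab, with SOCS1 at 10.4 to 26.9 on every REC1 array.

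Among the 6 untreated arrays of a line, 3 signals lay far from the others by Dixon's test, in 30 sets looked at, where chance flags about 1 in 20. SOCS2 was 13.6 in Control replicate 5 of SUDHL4 against at most 6.10 elsewhere, STAT5B was 449 in Control replicate 3 of SUDHL4 against 373 to 399, and STAT6 was 636 in Control replicate 1 of Z138 against 698 to 724.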

How the results depend on the processing

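With the replicate number as a block the counts of calls were 4 in SUDHL4, 2 in OciLy18, 1 in Z138 and 5 in REC1, as without it. Residuals of arrays with the same number had median correlations of -0.014 in SUDHL4 and OciLy18, -0.005 in Z138 and 0.038 in REC1, so the numbers were not taken to pair the arrays, and the block changed no count. In OciLy18 the count of 2 became 1 against the other control triplicate and against all 6 controls. In Z138 the count of 1 became 0 with 16 added before log2. In REC1 the count of 5 became 2 against the isotype arrays. The 7 differences between line responses became 4 with 16 added, and between antibodies quantile normalization gave 1 call in place of 0, STAT3 by 208992_s_at with anti-IgM against isotype in REC1. Leaving out each array gave 3 to 4 calls in SUDHL4, 1 to 2 in OciLy18, 0 to 1 in Z138, 4 to 6 in REC1, 0 to 2 between antibodies (STAT3 against isotype in REC1) and 0 to 1 between control triplicates (STAT3 by 225289_at in Z138). For single genes, 1910 alternative values left the status as it was, 26 lost a call, 10 gained one and 0 reversed. The 1910 include values that were called in neither fit, so they do not measure how stable the calls were. All 26 losses fell on calls of STAT3, STAT5A and SOCS1 by their main probe sets. Of those gained, STAT5A with LT20 passed the limit under quantile normalization in SUDHL4 (1.02) and REC1 (1.08). Leaving out single arrays was not run for the untreated lines and for the line responses. Signals under 100 lie where background weighs on this array, which limits STAT5A, SOCS2 outside Z138 and SOCS1 in REC1.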
